A study of Mus musculus with 24 samples.

Results

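The Hey family holds 3 genes, Hey1, Hey2 and Heyl, which encode basic helix-loop-helix repressors. They were taken by the gene symbol that the array tables give each probe, and these 3 of the 18120 symbols were represented by 4 of the 25697 probes: 1 for Hey1, 2 for Hey2 and 1 for Heyl. All 3 genes were among the 9591 symbols tested, those with a probe told apart from background (detection p under 0.05) by every one of a group's 3 arrays. Heyl met that filter only through 1 group, the induced DN cells.

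Notch receptors are cleaved when a neighbouring cell presents a ligand, and the released intracellular domain enters the nucleus, binds the DNA-binding protein RBPJ and switches on target genes. Hey genes are among the best known of these targets in blood vessels and the heart. Hey proteins bind DNA as dimers and recruit corepressors. In the mouse, embryos that lack both Hey1 and Hey2 fail to form proper arteries, and Hey2 is the counterpart of zebrafish gridlock, an artery gene. Heyl is known for its expression in vascular smooth muscle and in somites.

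The cells were day 6 embryoid bodies, the aggregates that embryonic stem cells form as they differentiate in culture. They came from the stem cell line Ainv15, in which ICN1, the intracellular domain of Notch1, was expressed on addition of doxycycline. In the induced groups ICN1 was switched on from day 3 to day 5, and in the non-induced groups it was not. After sorting, each condition gave a CD41 sp, a VE sp, a DP and a DN fraction (4 in all, with abbreviations that the labels leave unexplained), with 3 replicates in each of the 8 groups and 24 Illumina arrays in all. Doxycycline went only to induced cells, so drug and ICN1 cannot be told apart, and the labels do not say whether the replicates were separate cultures, so p-values here describe the scatter of these samples, part of which may be technical. Every group carried the inducible construct.

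The markers of the fractions matched their names in part. Cdh5, which encodes VE-cadherin, had a mean level between 9.03 and 10.51 in the VE sp and DP groups and was detected on no array of CD41 sp or DN. Itga2b, which encodes CD41, was detected in every group, with means of 10.97 to 11.27 in the CD41 sp and DP groups, 9.37 to 9.52 in VE sp and 7.88 to 7.91 in DN. Levels are log2 of the background-corrected, quantile-normalized intensity, and 1 unit is a doubling. Mean raw intensity ran from 165 to 656 over the arrays, and 4 arrays lay under 300: non-induced VE sp replicate 3 and the replicate 2 arrays of induced CD41 sp, VE sp and DP. In bulk samples of this kind fewer cells of a type and less RNA per cell cannot be told apart.

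Hey1 was higher with ICN1 in every fraction, Hey2 was highest in VE sp and showed no called response, and Heyl was detected on all 3 arrays of 1 group alone, the induced DN cells. The plot of array levels shows these patterns side by side.

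Hey1 was detected on 24 of 24 arrays. In non-induced cells its log2 levels in replicates 1, 2 and 3 were 11.25, 10.23 and 10.61 in VE sp. In DN they were 8.59, 7.39 and 8.58. In DP they were 8.61, 6.17 and 7.52, and in CD41 sp 6.73, 6.08 and 7.76. The VE sp arrays lay above all other non-induced arrays, while the ranges of DN, DP and CD41 sp overlapped.

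With ICN1 the Hey1 levels were 12.86, 11.95 and 12.59 in VE sp. They were 11.41, 9.84 and 11.61 in DN. They were 11.18, 9.42 and 10.30 in DP, and 9.71, 8.55 and 10.10 in CD41 sp. The order of the fractions was that of the non-induced cells, and within each fraction the induced and non-induced arrays did not overlap. The share of all genes whose arrays separate in this way is not given here. Replicate 2 was the low array in 8 of the 8 groups, by 0.84 on average below the group mean, against 0.50 and 0.34 above it for replicates 1 and 3.

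Ordered by mean, Hey1 ran from 12.47 ± 0.47 (SD, n = 3) in induced VE sp through induced DN (10.95 ± 0.97), non-induced VE sp (10.70 ± 0.51), induced DP (10.30 ± 0.88), induced CD41 sp (9.45 ± 0.80), non-induced DN (8.19 ± 0.69) and non-induced DP (7.43 ± 1.22) to non-induced CD41 sp (6.85 ± 0.85). Of the 7 neighbouring pairs in that order, only induced VE sp was separated from the group beneath it; the other 6 pairs overlapped.

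Averaged over the 4 fractions, Hey1 rose with induction by 2.50 ± 0.30 (SE; log2), a 5.65-fold change, with a limma adjusted p of 3.99e-05. This was the largest fitted rise among the 9591 genes tested, of which 2.05% were called higher at an adjusted p under 0.05. The 3 replicate numbers gave averages of 2.49, 2.47 and 2.53, so the rise was nearly the same in each set of 8 arrays although the sets differed in level.

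Within fractions the Hey1 difference was 2.76 ± 0.61 in DN, 6.79-fold, and the only one of the 4 past the threshold (limma adjusted p = 0.0265). It was 2.87 ± 0.61 in DP (adjusted p = 0.0689), 2.60 ± 0.61 in CD41 sp (adjusted p = 0.133) and 1.77 ± 0.61 in VE sp (adjusted p = 0.298). The shares of all genes called higher in these comparisons were 0.730%, 0.0834%, 0.0730% and 0.980%. Replicate numbers pair the arrays across groups, and with the replicate number as a block all 4 differences were called, at adjusted p of 1.30e-05, 3.91e-05, 7.98e-05 and 0.00154 in the same order, with a standard error of 0.31. The same block raised the number of called genes from 89 to 394 in DN, from 13 to 155 in DP, from 9 to 87 in CD41 sp and from 109 to 418 in VE sp, and the shares of genes called higher to 2.41%, 1.03%, 0.427% and 3.16%.

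The same-numbered differences of Hey1 were 2.82, 2.45 and 3.03 in DN. In DP they were 2.57, 3.25 and 2.79. In CD41 sp they were 2.98, 2.47 and 2.34, and in VE sp 1.61, 1.72 and 1.98. All 12 were positive, and the 3 VE sp values were the only ones below 2. How many of all genes have such agreement in sign is not given here. Without the 4 dim arrays the DN difference was 2.76, the DP difference 3.31, the CD41 sp difference 3.05 and the VE sp difference 1.98. The call in DN was lost when any 1 of 5 of its 6 arrays was left out, with adjusted p of 0.0539 to 0.156; it was kept without induced DN replicate 2. It was also lost under median scaling (adjusted p = 0.304) and in the authors' processed values without a block (0.348). With the replicate block those values gave a limma adjusted p of 2.22e-06.

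**Figure D1:**
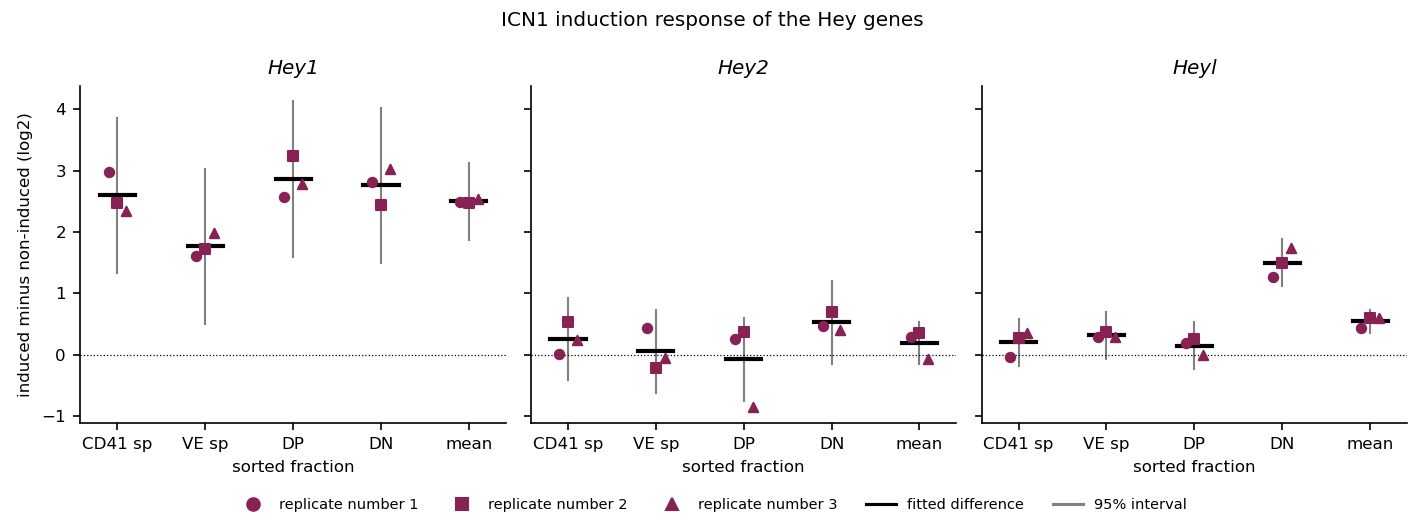
Induced minus non-induced log2 difference of Hey1, Hey2 and Heyl in each sorted fraction and averaged over the 4 fractions; symbols are the differences between arrays of the same replicate number, black bars the fitted difference and grey lines its 95% interval without a block. The Hey1 points lie between 1.61 and 3.25 in every fraction, and those of Heyl are raised in DN. Those of Hey2 lie between -0.86 and 0.70, with mixed signs in VE sp and DP and all above 0 in DN and CD41 sp.

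Although the VE sp response of Hey1 was the smallest, a difference among fractions was not shown. The F test over the 4 responses gave an adjusted p of 1.00 (0.370 with the block). The VE sp response was 1.10 below that in DP (95% interval of VE sp minus DP -2.89 to 0.69, adjusted p = 0.999) and 1.00 below that in DN (-2.79 to 0.80) without a block. With the replicate block these intervals were -2.01 to -0.19 and -1.90 to -0.09, and the differences were negative for 3 of 3 replicate numbers in each, but neither passed adjustment over all genes (adjusted p = 0.254 and 0.319). Non-induced means were 10.70 in VE sp, 8.19 in DN, 7.43 in DP and 6.85 in CD41 sp. Whether the starting level bears on the response was not tested.

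In non-induced cells Hey1 was 3.85 ± 0.61 higher in VE sp than in CD41 sp (14.4-fold, limma adjusted p = 4.04e-05), 3.27 ± 0.61 higher than in DP (adjusted p = 0.000719) and 2.51 ± 0.61 higher than in DN (adjusted p = 0.00379). Fractions differ in many genes, and 14.5%, 6.31% and 12.4% of all genes were called higher in VE sp in these comparisons. DN exceeded CD41 sp by 1.33 ± 0.61, which was called with the block (adjusted p = 0.00219, beside 15.3% of genes) and not without it (0.172). DP and DN did not pass against each other under either fit, nor did DP and CD41 sp.

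In induced cells VE sp exceeded CD41 sp by 3.02 ± 0.61 (adjusted p = 0.000499) and DP by 2.17 ± 0.61 (adjusted p = 0.0146), against 18.0% and 10.5% of all genes called higher. The second of these calls was lost without induced VE sp replicate 1 (adjusted p = 0.0599), without induced DP replicate 2 (0.0860) or without the dim arrays (0.0882). VE sp exceeded DN by 1.52 ± 0.61 (adjusted p = 0.0717; 0.000421 with the block, beside 21.4% of genes). DN and DP exceeded CD41 sp by 1.50 ± 0.61 and 0.85 ± 0.61, with adjusted p of 0.116 and 0.482 (0.000774 and 0.0482 with the block, beside 15.7% and 14.7% of genes).

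Hey2 is also a direct target of Notch in the mouse, and its promoter is shown because it alone of the family had an entry in the table used. The stretch from 250 bases before to 50 after the start of transcription comes from RefSeq (1 of the 3 genes matched; GRCm38.p6, chr10:30842734-30843033, minus strand); capitals mark the letters GTGGGAA, a core motif of RBPJ, searched on both strands.

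Hey2 promoter: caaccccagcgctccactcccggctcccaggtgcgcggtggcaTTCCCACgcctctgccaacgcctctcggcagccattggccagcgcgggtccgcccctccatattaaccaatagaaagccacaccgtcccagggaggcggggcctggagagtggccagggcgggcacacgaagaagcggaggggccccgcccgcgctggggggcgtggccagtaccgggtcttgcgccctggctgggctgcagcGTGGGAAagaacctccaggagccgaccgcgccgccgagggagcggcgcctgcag

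This window held 2 matches: TTCCCAC, the motif on the opposite strand, at positions -207 to -201, and GTGGGAA from -4 to 3, where position 1 is the first transcribed base and there is no position 0. Of 32851 promoters of that length 6.38% held the motif at least once and 0.256% held it 2 or more times. CACGTG, an E-box that Hey proteins can bind, was present in 7.15% of promoters and had no match in this one. A match describes letters only and says nothing of binding in these cells.

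The brighter Hey2 probe was detected on 15 of 24 arrays. Its levels in replicates 1, 2 and 3 were 6.81, 6.35 and 7.31 in non-induced VE sp and 7.24, 6.13 and 7.25 in induced VE sp. In DN they were 5.19, 4.57 and 5.64 without and 5.66, 5.27 and 6.05 with induction. VE sp arrays were the brightest in each condition, with no overlap with another fraction, while induced and non-induced VE sp arrays were intermixed. The share of all genes with such a separation of VE sp is not given here.

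In DP the Hey2 levels were 4.76, 4.49 and 5.37 without and 5.01, 4.87 and 4.51 with induction, and 3 of these 6 arrays were detected. In CD41 sp they were 4.64, 4.43 and 4.50 without and 4.64, 4.96 and 4.75 with induction, and 1 of the 6 was detected. These values lie at the detection limit. The order of means was induced VE sp (6.87 ± 0.65), non-induced VE sp (6.82 ± 0.48), induced DN (5.66 ± 0.39), non-induced DN (5.13 ± 0.54), non-induced DP (4.87 ± 0.45), induced DP (4.80 ± 0.26), induced CD41 sp (4.78 ± 0.17) and non-induced CD41 sp (4.52 ± 0.10). Neighbours overlapped except at the step from VE sp to DN and at the last step, between the CD41 sp groups, whose nearest arrays both round to 4.64.

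Hey2 did not pass the test in any induction comparison. Averaged over fractions the difference was 0.19 ± 0.16 (95% interval -0.15 to 0.53, limma adjusted p = 0.730; 0.350 with the block). By fraction it was 0.05 ± 0.32 in VE sp (interval -0.62 to 0.72) and 0.53 ± 0.32 in DN (-0.15 to 1.20, adjusted p = 0.916). It was 0.26 ± 0.32 in CD41 sp (-0.41 to 0.93) and -0.08 ± 0.32 in DP (-0.75 to 0.59). The upper ends of these intervals lay under 1 log2 unit in VE sp, DP and CD41 sp. In DP and CD41 sp the values lie at the detection limit, where the scale understates changes, so the intervals do not bound the change there. Without the dim arrays the VE sp difference was 0.67 ± 0.34 (adjusted p = 0.773), so a larger change in VE sp is not excluded. The DP difference was 0.08 under median scaling and 0.12 with array weights, so its sign is not settled. In DN the same-numbered differences were 0.47, 0.70 and 0.41. With the block the DN interval was 0.003 to 1.05, not called over all genes (limma adjusted p = 0.243).

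Between fractions Hey2 was called higher in VE sp in every comparison. In non-induced cells it exceeded DP by 1.94 ± 0.32 (3.85-fold, adjusted p = 0.000220) and DN by 1.68 ± 0.32 (adjusted p = 0.000425). Against CD41 sp, where no array detected it, it was at least 3.43-fold higher (adjusted p = 9.15e-06). The shares of all genes called higher in VE sp were 6.31% against DP, 12.4% against DN and 14.5% against CD41 sp. With ICN1 Hey2 exceeded CD41 sp by 2.09 ± 0.32 (adjusted p = 2.48e-05) and DP by 2.08 ± 0.32 (6.94e-05). It exceeded DN by 1.21 ± 0.32 (0.00708). Shares of genes called higher were 18.0%, 10.5% and 13.3% in these. The last call was lost in the authors' values without the block (0.85, limma adjusted p = 0.113). In induced cells DN exceeded DP by 0.86 ± 0.32 and CD41 sp by 0.88 ± 0.32, called with the block (adjusted p = 0.0101 and 0.0113, beside 17.9% and 15.7% of genes) and not without it (0.0649 and 0.0752).

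The second Hey2 probe was detected on 10 of 24 arrays, on all 6 VE sp arrays among them. Its induction differences were 0.55 ± 0.31 in DN, 0.23 ± 0.31 in VE sp, -0.05 ± 0.31 in CD41 sp and 0.30 ± 0.31 in DP, with adjusted p of 0.971 or above. In non-induced cells its VE sp level was at least 2.57-fold that in CD41 sp (adjusted p = 6.40e-05) and at least 2.72-fold that in DP (adjusted p = 0.000152). The 2 probes gave the same order of VE sp, DN and the rest, and differed in the sign of the small DP and CD41 sp responses.

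Heyl was near the detection limit on most arrays. Its levels in replicates 1, 2 and 3 were 4.41, 4.40 and 4.53 in non-induced DN, detected on none, and 5.67, 5.89 and 6.28 in induced DN, detected on all 3. In induced VE sp they were 4.79, 4.76 and 5.22, and the last of these was detected. The remaining 5 groups lay between 4.33 and 4.94, with no array detected. The induced DN arrays were above every other array, and the means of the others fell from 4.93 ± 0.26 in induced VE sp to 4.42 ± 0.08 in non-induced DP with overlap between all neighbours.

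In DN Heyl rose by 1.50 ± 0.18 with induction (same-numbered differences 1.26, 1.49 and 1.75; limma adjusted p = 6.40e-05), at least 2.00-fold since it was not detected without ICN1. Its detection in induced DN was the condition for its being tested; with all genes tested and no detection filter the adjusted p was 4.00e-05. The authors' processed values gave 0.99 for this difference (limma adjusted p = 0.134 without and 3.87e-06 with the replicate block). A fit of the DN arrays alone left it short of the threshold (adjusted p = 0.0750).

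In VE sp the Heyl difference was 0.32 ± 0.18 (adjusted p = 0.883) and positive for 3 of 3 replicate numbers. It was 0.20 ± 0.18 in CD41 sp and 0.15 ± 0.18 in DP, with adjusted p of 1.00 in each. The average over fractions was 0.54 ± 0.09 (adjusted p = 0.00137), beside 2.05% of all genes called higher. This average includes the DN difference of 1.50, and Heyl passed the detection filter only through induced DN. It therefore does not show a response shared by the fractions. Without the filter the limma adjusted p of the average was 0.000779. In the authors' values the average was 0.39 (limma adjusted p = 0.217 without and 4.06e-05 with the replicate block). Intervals reached from -0.06 to 0.70 in VE sp, -0.18 to 0.58 in CD41 sp and -0.23 to 0.53 in DP, on a scale that understates changes of dim probes.

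The Heyl response differed between DN and DP, where DP minus DN was -1.35 ± 0.26 (adjusted p = 0.0415), a comparison in which 0.0938% of genes were called lower; without the detection filter, which Heyl passed only through induced DN, the adjusted p was 0.0188. CD41 sp minus DN was -1.30 ± 0.26 (adjusted p = 0.0751; 0.00576 with the block) and VE sp minus DN -1.18 ± 0.26 (0.0985; 0.00744 with the block), and the block called 0.209% and 0.511% of genes lower in these. The F test over the 4 fractions gave an adjusted p of 0.0512, with 0.146% of genes called, and 0.00271 with the block, which called 2.11%. The DP to DN call was lost on leaving out any of 19 arrays, with adjusted p up to 0.132. It was also lost under median scaling (adjusted p = 0.258), without background correction (0.269), in the authors' values (-0.82, adjusted p = 1.00), with only the groups compared (0.285) and without the dim arrays (0.0969).

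Among induced fractions Heyl in DN was at least 2.00-fold that in DP (adjusted p = 5.93e-06), at least 1.97-fold that in CD41 sp (2.02e-05) and 1.02 ± 0.18 log2 units above that in VE sp (0.000206), where 1 array detected it. Shares of genes called in the same direction were 10.2%, 9.62% and 13.2%. Heyl passed the detection filter only through induced DN, the higher group of each pair, so these tests are not independent of the filter. The difference from VE sp was not called in the authors' values without the block (limma adjusted p = 0.0691).

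Some cell type markers moved with induction in DN too, and their part in the Heyl result was not tested. The mean level of 6 measured mesenchyme and matrix markers was 7.01 to 7.37 on the non-induced and 7.69 to 7.98 on the induced DN arrays. The mean of 5 smooth muscle and pericyte markers was 6.58 to 6.83 and 6.83 to 7.19, and 1 of them rose, Rgs5 (1.34 ± 0.16, adjusted p = 6.08e-05), a regulator of G protein signalling typical of pericytes. The mean of 11 endothelial markers was 5.74 to 5.81 and 5.81 to 6.25, with Cdh5 undetected and 1 gene higher, Esam (Esam1 on the array), an adhesion molecule gene (1.96 ± 0.38, adjusted p = 0.00987). Of 6 endoderm markers 2 fell, Ttr by 3.04 ± 0.49 and Apoa1 by 1.92 ± 0.27, and the mean was 8.04 to 9.34 without and 6.88 to 7.77 with ICN1. Some of the remaining lists moved as much as the smooth muscle and endothelial ones. For these 2 the DN means without and with ICN1 were 6.70 and 6.99, and 5.77 and 5.99. Of the remaining lists, the DN means were 12.37 and 12.49 for erythroid, 9.84 and 9.54 for epithelial and 7.53 and 7.48 for pluripotent markers. Those for cardiac muscle were 7.61 and 7.36, for megakaryocyte and early blood 6.14 and 6.15, and for myeloid markers 5.78 and 5.88.

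The other genes of the Notch pathway were counted from a list. Of 49 listed genes 39 were measured, and limma called 4 of them higher and 0 lower on average over fractions, 3 higher in DN, 1 higher in CD41 sp and 0 in VE sp or DP. The 4 and the 3 are 10.3% and 7.69% of the list, beside 2.05% and 0.730% of all genes called higher in the same comparisons. At an unadjusted p under 0.05 the 39 genes included 8, 7, 6, 8 and 5 in these comparisons (on average, DN, CD41 sp, VE sp and DP), where 12.5%, 6.43%, 4.21%, 7.12% and 5.40% of all genes did so. With the block 9, 6, 2, 3 and 1 were called higher, beside 7.15%, 2.41%, 0.427%, 3.16% and 1.03% of all genes. Their median difference averaged over fractions was 0.11, beside 0.0029 over all genes tested.

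Of the other Notch targets Nrarp, which encodes an ankyrin-repeat inhibitor of the Notch complex, rose by 2.92 ± 0.34 in DN (adjusted p = 4.31e-05) and by 2.23 ± 0.34 in CD41 sp (0.00287). Its differences in VE sp and DP were 0.45 ± 0.34 and 0.10 ± 0.34, neither past the test, where its non-induced means were 9.94 and 9.49 against 7.51 in DN and 7.52 in CD41 sp. Hey1 in DP, by comparison, had a difference of 2.87. Dtx1, a Deltex ubiquitin ligase, rose by 1.26 ± 0.19 on average (adjusted p = 0.000518) and by 1.78 ± 0.39 in DN (0.0238). Median scaling and the authors' values each ended the calls of Nrarp in CD41 sp and of Dtx1 in DN.

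Among ligands Jag1 rose by 0.81 ± 0.11 on average (adjusted p = 0.000202) and by 1.13 ± 0.23 in DN (0.0118). Among receptors Notch3, known from vascular smooth muscle, rose by 0.51 ± 0.13 on average (0.0294). The calls of Jag1 in DN and of Notch3 were lost under median scaling and in the authors' values. Notch1 differed by 0.44 ± 0.16 on average (adjusted p = 0.179; 0.00542 with the block), by 1.08 ± 0.32 in DN (0.168; 0.00256 with the block) and by 0.78 ± 0.32, 0.20 ± 0.32 and -0.30 ± 0.32 in CD41 sp, VE sp and DP. No source used here says whether its probe reads the ICN1 transgene, and it therefore does not check the induction. Its group means, 10.24 in VE sp, 9.05 in DP, 5.40 in CD41 sp and 6.94 in DN without induction, also put VE sp first, as did those of Hey1 and Hey2.

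No gene passed among those for ligand modification, receptor cleavage or nuclear cofactors in the average over fractions. The pair of genes named from each list, those with the highest mean level, differed by -0.11 ± 0.09 (Poglut1, listed on the array as 9630046K23Rik), 0.19 ± 0.17 (Neurl1a, as Neurl), -0.24 ± 0.16 (Psenen, as 1700023M09Rik), 0.41 ± 0.18 (Furin), -0.04 ± 0.13 (Hdac1) and 0.19 ± 0.11 (Maml1). Furin, a protease that processes Notch receptors, was called with the block (adjusted p = 0.00656).

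**Figure D2:**
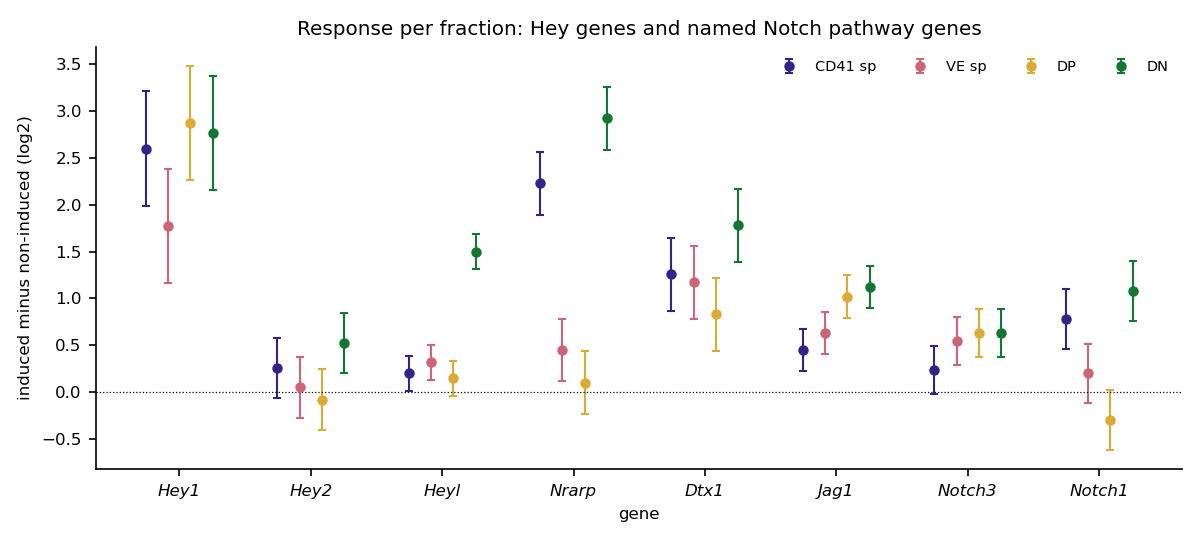
Induced minus non-induced log2 difference in each sorted fraction (colour) for the Hey genes and for the Notch pathway genes that were called on average, with Notch1; points are fitted differences and bars 1 standard error on each side. Hey1 lies at 1.77 or above in all 4 fractions, and Nrarp is high in CD41 sp and DN and at 0.10 in DP.

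Of 15 measured arterial genes other than the Hey genes, 2 rose on average over fractions, Jag1 and the netrin receptor gene Unc5b (0.51 ± 0.12, adjusted p = 0.0243), and the median was 0.19. Of 7 venous and lymphatic genes, 1 fell and 1 rose. The apelin receptor gene Aplnr (Agtrl1 on the array) fell by 1.05 ± 0.16 (adjusted p = 0.000449), and the hyaluronan receptor gene Lyve1 (Xlkd1) rose by 0.88 ± 0.23 (0.0383). The median of these 7 was 0.02.

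Of 11 genes reported as repressed by Hey factors 5 were measured: Gata4, Gata6, Bmp2, Myh6 and Tbx20. The only call among them was higher, not lower: Tbx20, a cardiac T-box factor, rose by 0.48 ± 0.11 (adjusted p = 0.0146), and the list median was 0.09. The mean level of Tbx20 over all arrays was 4.88, near the detection limit. Of 8 endocardial and mesenchymal transition genes 1 rose, Has2, which encodes a hyaluronan synthase (0.67 ± 0.13, adjusted p = 0.00422). Among 11 other helix-loop-helix factors Id2, an inhibitor of their DNA binding, rose by 0.84 ± 0.21 (0.0331) and Mesp1, an early mesoderm factor, fell by 0.43 ± 0.11 (0.0456), with the fall in DN at 1.30 ± 0.23 (0.00421). The Mesp1 call in DN was lost under median scaling (adjusted p = 0.131), in the authors' values (0.929) and with only the groups compared (0.336). The mean level of Mesp1 over all arrays was 4.79, also near the detection limit. The calls of Unc5b, Aplnr, Lyve1, Tbx20, Has2, Id2 and Mesp1 on average were not made under median scaling or in the authors' values. Over all genes 2.97% were called in this average in either direction, and the lists were chosen with results of these data known.

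The genes most like each family member were ranked by Pearson's r over the 8 group means, among 3162 symbols whose highest and lowest group means differed by at least 1 log2 unit. The 8 points share arrays and normalization, so r is a description. For Hey1 these were Chst2, a sulfotransferase gene (r = 0.981), Maged2, Rpl22, Smad6, an inhibitory Smad, Dab2ip and Timp2, a metalloproteinase inhibitor (r = 0.899). The most opposite were Dcxr (r = -0.975), Pqlc3 and Fahd1. Chst2 ran from 4.84 in non-induced CD41 sp to 8.52 in induced VE sp, and like Hey1 it was higher with induction in each fraction.

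For Hey2 they were Crmp1 (r = 0.990), Adam12, a metalloprotease gene, Bcar1, an adhesion adaptor, Ppfibp1, Triobp and Creb3l2 (r = 0.982), all highest in the VE sp groups. The most opposite was Nfe2, an erythroid and megakaryocyte factor (r = -0.974), at 9.26 in VE sp and 12.72 in CD41 sp without induction, followed by Glrx and Dci. For Heyl they were Vsnl1, a neuronal calcium sensor (r = 0.983), Col16a1, Vcam1, Pcdha6, Gata5 and Celsr1 (r = 0.945). Vsnl1 was at 6.80 in induced DN and at 5.34 or below elsewhere. Col16a1, Vcam1, Pcdha6 and Celsr1 lay at 4.87 or below in every group but induced DN. The r values for Heyl therefore rest mainly on induced DN, through which Heyl itself passed the filter. Pcdha6 belongs to a cluster of protocadherins that share sequence, so its probe may read several of them.

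**Figure D3:**
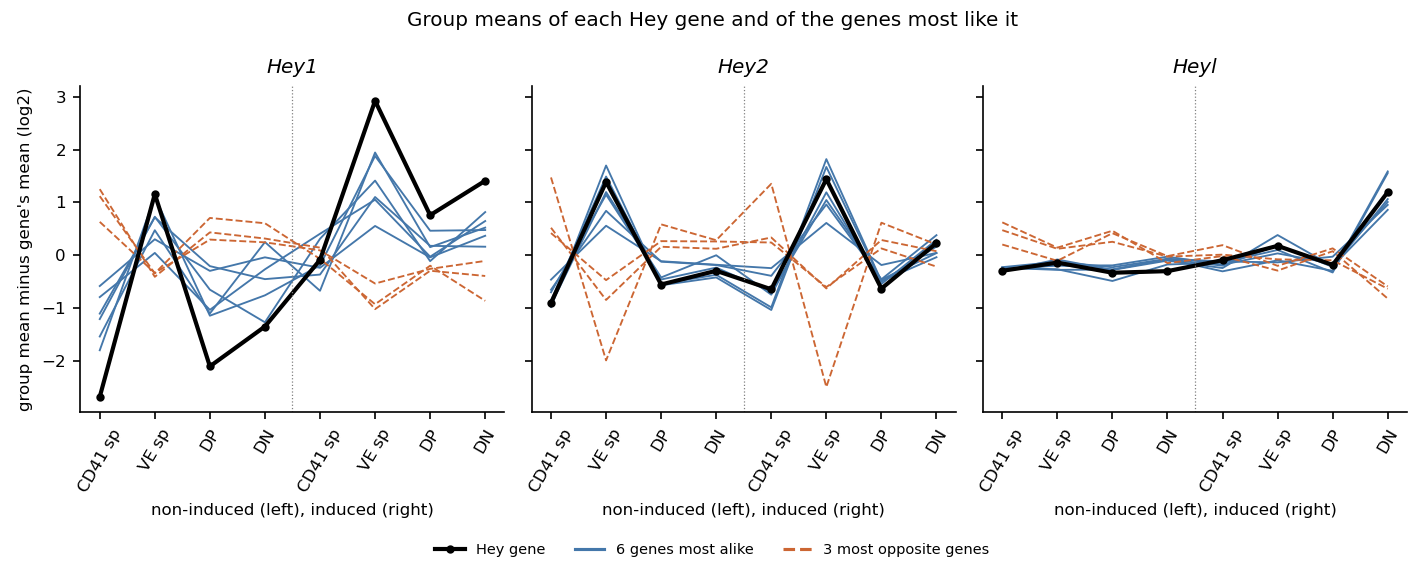
Mean log2 level of each of the 8 groups minus the gene's mean over the groups, for each Hey gene (black), the 6 genes most alike (blue) and the 3 most opposite (orange, dashed); non-induced groups are on the left and induced groups on the right of the dotted line. Hey1 and its likes rise from left to right within each fraction, Hey2 and its likes peak in VE sp on each side, and Heyl and its likes peak in induced DN.

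Among the members themselves, r over the 8 group means was 0.774 for Hey1 and Hey2, 0.556 for Hey1 and Heyl, and 0.317 for Hey2 and Heyl. Hey1 and Hey2 shared the high level in VE sp. On average over fractions the rise with ICN1 was called for Hey1 and not for Hey2, and the responses of the genes were not tested against each other. Hey1 and Heyl were both called higher in DN. The promoters of Hey1 and Heyl were not used here.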

How the data were processed

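Expression was measured on 24 Illumina bead arrays of sorted day 6 embryoid body cells, 3 in each of 8 groups taken from the sample titles. The raw tables hold 1 intensity per probe and array that the authors deposited without normalization, per the file headers, and a detection p-value per probe, also deposited by the authors. A further deposited table holds intensity values the authors processed by a method not given in the sources used here, and it served as an alternative. From the raw values, limma 3.58.1 in R 4.3.3 estimated background from the detection p-values (normexp, offset 16), and arrays were quantile normalized and taken to log2. The offset understates changes of dim probes. A probe was kept if every array of some group detected it at a p under 0.05 (12894 of 25697), the probe with the highest mean stood for its symbol, and 9591 symbols were fitted with lmFit and eBayes on 8 group means without a block, with 16 residual degrees of freedom. A call is a Benjamini-Hochberg adjusted p under 0.05 over all symbols of a comparison. The second Hey2 probe was fitted among the 12894 probes. The fit was tested on simulated data with independent noise on each array. That test covers neither the background correction nor arrays paired by replicate number.

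The replicate numbers were judged to pair the arrays, because deviations from the group mean correlated at 0.293 to 0.777 in all 84 same-numbered pairs from different groups and at -0.626 to 0.0947 in the other 168 pairs. The blocked value stands beside results whose call it changed. The number of arrays limits the precision. No 2 arrays of a group were identical, and the highest correlation within a group was 0.989. Alternatives were median scaling, no background correction, the authors' values, no detection filter, the replicate block, array weights, every probe tested, only the groups compared and each array left out. Further ones, without the dim arrays and the authors' values with the block, were chosen after seeing the data.

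The members and gene lists were chosen with earlier results of these data known. Of each list the 3 called genes with the largest average change were named, or the 2 genes of highest mean level where none was called, and Notch1 always; older array symbols were matched through a RefSeq gene table, which held 9323 of the tested symbols. Marker genes named for a fraction or for DN were chosen after their values were seen.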

Additional observations from a re-analysis of the deposited data

Results flagged for a closer look

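The induction response of Heyl in DP minus that in DN was -1.35 ± 0.26 on the log2 scale (95% interval -1.89 to -0.81), and a test of the difference itself passed the threshold (limma adjusted p = 0.0415; 0.00235 with the replicate block). The call was lost without any of 19 of the 24 arrays, under median scaling (adjusted p = 0.258), without background correction (0.269), in the authors' values (1.00), with only the groups compared (0.285) and without the dim arrays (0.0969). The F test over the 4 fractions was not called (adjusted p = 0.0512). Heyl passed the detection filter only through induced DN, the group that sets this difference, and with no filter the adjusted p was 0.0188. The DN response was 1.50 and the DP response 0.15, and neither DP group was detected on any array.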

How the results depend on the processing

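The rise of Hey1 averaged over fractions was called under every alternative run, at 2.34 to 2.65 with 1 array left out.

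With the replicate block these differences kept their size and became calls: Hey1 induction in CD41 sp (2.60), VE sp (1.77) and DP (2.87), Hey1 non-induced DN over CD41 sp (1.33), Hey1 induced VE sp over DN (1.52), DP over CD41 sp (0.85) and DN over CD41 sp (1.50), and Hey2 induced DN over DP (0.86) and over CD41 sp (0.88). In the authors' processed values with the block the same 9 were called, at 2.22, 1.70, 2.53, 1.09, 1.44, 0.79, 1.42, 0.50 and 0.53. The adjusted p of the Heyl F test was 0.00271 with the block, 0.00501 in the authors' values with it, 0.0168 with array weights and 0.0179 without the filter. Array weights also gave calls for Hey1 induction in CD41 sp (2.73) and DP (2.88) and Hey2 induced DN over CD41 sp (0.92). Hey1 induced VE sp over DN was called without background correction (1.49) and with only the groups compared (1.52).

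Calls were lost as follows, and the cause was not tested. Hey1 induction in DN was not called under median scaling (2.78), in the authors' values (2.56), without the filter (2.76) or with only the groups compared (2.76). Median scaling also ended the calls of Hey1 non-induced VE sp over DN (2.21) and induced VE sp over DP (2.07), the last also lost in the authors' values (2.08) and without the dim arrays (1.99). The authors' values without the block ended those of Hey2 induced VE sp over DN (0.85) and Heyl induced VE sp minus DN (-0.64). They also ended those of Heyl induction in DN (0.99) and on average (0.39). With the block they gave limma adjusted p of 2.22e-06 and 3.87e-06 for Hey1 and Heyl in DN, and 4.06e-05 for the Heyl average. Heyl in DN was also lost with only the groups compared (1.50). The difference of the Heyl responses in DP and DN was not called under median scaling (-1.35), without background correction (-0.76), in the authors' values (-0.82), with only the groups compared (-1.35) or without the dim arrays (-1.36), nor the Mesp1 fall in DN under median scaling (-1.25), in the authors' values (-0.85) or with only the groups compared (-1.30).

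Signs turned only among uncalled differences. Hey2 induction in DP was 0.078 under median scaling, 0.033 in the authors' values with or without the block, and 0.12 with array weights. Hey2 induced DP minus CD41 sp was -0.0047 without background correction, and Heyl induced DP minus CD41 sp was 0.0085 with array weights. Without the dim arrays Heyl non-induced VE sp minus CD41 sp was -0.011 and minus DN -0.0042, and Hdac1 on average 0.095. Among differences of responses, Hey1 CD41 sp minus DN was 0.28 without the dim arrays, and DP minus DN was -0.099 under median scaling, -0.037 without background correction and -0.031 in the authors' values. Hey2 CD41 sp minus VE sp was -0.059 under median scaling, -0.022 with array weights and -0.50 without the dim arrays, where VE sp minus DN was 0.14. Heyl CD41 sp minus DP was -0.019 under median scaling, -0.010 in the authors' values and -0.059 with array weights.

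Genes called for induction in CD41 sp, VE sp, DP, DN and on average numbered 9, 109, 13, 89 and 285. They were 87, 418, 155, 394 and 1242 with the block, 36, 204, 36, 137 and 535 with array weights, 3, 23, 3, 34 and 71 under median scaling, 5, 11, 2, 12 and 46 in the authors' values, and 101, 456, 211, 486 and 1371 in those with the block. With only the groups compared they were 1, 10, 0 and 9 in the fractions, and VE sp gave 58 without the dim arrays. Median scaling shifted the median of all genes by -0.19 in CD41 sp, 0.14 in VE sp and -0.10 in DP.

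Leaving out 1 array at a time, the Hey1 induction difference ran from 2.23 to 3.46 in DP and from 2.37 to 3.32 in DN, Hey1 induced VE sp over DP from 1.73 to 2.61, induced DN minus CD41 sp from 1.05 to 2.06 and non-induced DP minus CD41 sp from -0.013 to 1.21. Hey2 induction ran from -0.18 to 0.43 in VE sp and from -0.27 to 0.17 in DP, and in induced cells Hey2 DP minus CD41 sp ran from -0.095 to 0.16, DN minus DP from 0.67 to 1.06 and DN minus CD41 sp from 0.68 to 1.07. In non-induced cells Heyl VE sp minus CD41 sp ran from -0.011 to 0.26, VE sp minus DN from -0.0042 to 0.27, DP minus CD41 sp from -0.067 to 0.0078, DN minus DP from -0.014 to 0.060 and DN minus CD41 sp from -0.049 to 0.017. Differences of responses ran, for Hey1, from -0.86 to 0.36 for CD41 sp minus DP, -0.72 to 0.29 for CD41 sp minus DN and -0.53 to 0.69 for DP minus DN. For Hey2 they ran from -0.17 to 0.44 for CD41 sp minus VE sp, -0.52 to 0.016 for CD41 sp minus DN and -0.12 to 0.50 for VE sp minus DP. For Heyl they ran from -0.28 to 0.032 for CD41 sp minus VE sp and -0.016 to 0.15 for CD41 sp minus DP. Notch1 induction in VE sp ran from -0.072 to 0.53, and the adjusted p of the Heyl F test from 0.0371 to 0.162. The averages called as higher or lower for Notch3, Unc5b, Agtrl1, Xlkd1, Tbx20, Has2, Id2 and Mesp1 were not called under median scaling or in the authors' values, nor were Jag1 and Dtx1 in the latter. Mesp1, Xlkd1 and Id2 lost the call without any of 19, 16 and 13 arrays.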
